A study of Mus musculus with 6 samples.

Results

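The replication-dependent histone genes supply the histones that package newly copied DNA. They were taken as the rows of the count table whose symbols begin with Hist1h, Hist2h, Hist3h or Hist4h, which gave 62 genes of 24348. By type these were 6 genes for H1, the linker histone that binds DNA between nucleosomes, and 16 for H2a, 16 for H2b, 11 for H3 and 13 for H4, the core histones around which DNA is wound. Every row of the table had counts in at least 3 libraries, and some genes of the family, such as Hist1h2aj and Hist2h2aa1, have no row. Among the 62, Hist1h2al and Hist3h2bb-ps are annotated as processed pseudogenes. The counts came from bulk total RNA-seq of fibroblasts sorted from the synovium, the membrane that lines the joint, of adult wild-type C57BL/6 mice. In the 3 IC libraries the mice had received immune complexes (IC) into a vein, which in the study were ovalbumin bound by antibodies against it. In the 3 vehicle libraries, whose treatment is labelled Control, they had not. The labels give no dose, no time after injection and no sorting gate for these cells, and do not say whether each library came from 1 mouse, so p-values measure the spread between these libraries only.

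Replication-dependent histone mRNAs are made in S phase, when DNA is copied, and are degraded soon after. Unlike most mRNAs they carry no poly(A) tail and end instead just after a short stem-loop in the 3′ UTR, which is bound by SLBP, the stem-loop binding protein. Many of the genes lie in clusters, and many copies encode the same protein. Cells that do not divide take their histones mostly from replacement genes outside this group, such as H3f3a and H3f3b, whose mRNAs are polyadenylated. Some cluster members are also known to give polyadenylated transcripts in cells that have stopped dividing.

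All 62 genes were found in the GENCODE M21 annotation of GRCm38, the assembly also called mm10, with 50 on chromosome 13, 8 on chromosome 3, 3 on chromosome 11 and 1 on chromosome 6. The stem-loop was sought in the annotated transcripts after the stop codon, on the sense strand, as GGNNNTTTTNANNNCC with the first 6 bases able to pair with the last 6. It was present in 41 of the 62 genes. Other coding genes were searched over the whole transcript, not only after the stop codon, and 11 of 21810 (0.0504%) held it. Of the 21 members without it, 13 had an annotated transcript that stopped at the stop codon and 2 were annotated as non-coding, so its absence there says only that these letters are not in the annotation. The 41 stem-loops fell into 6 sequences, and 1 gene of each is printed from the reference transcripts, with the 16-base stem-loop in capitals and 5 flanking bases on each side.
Hist1h1e: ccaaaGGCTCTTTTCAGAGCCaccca
Hist1h4d: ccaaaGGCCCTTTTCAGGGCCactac
Hist1h3f: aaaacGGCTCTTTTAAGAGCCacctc
Hist2h4: ctaacGGCCCTTTTTAGGGCCaacca
Hist1h4b: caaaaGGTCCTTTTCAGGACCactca
Hist2h2ac: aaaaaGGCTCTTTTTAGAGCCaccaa
The sequence shown for Hist1h1e was shared by 23 genes of types H1, H2a, H2b and H3, and that for Hist1h4d by 7 genes, all of them H4. That for Hist1h3f was found in 6 genes, those for Hist2h4 and Hist1h4b in 2 H4 genes each, and that for Hist2h2ac in this gene alone. In GRCm38 the capitals lie at chr13:23621782-23621797 (minus strand), chr13:23581950-23581965 (plus strand), chr13:23544932-23544947 (plus strand), chr3:96262939-96262954 (minus strand), chr13:23757366-23757381 (plus strand) and chr3:96220418-96220433 (minus strand).

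Histone transcripts were a small part of every library. Total counts ran from 40114331 to 56714304 per library, and the 62 genes together took from 0.0191% of them in Vehicle3 to 0.0303% in Vehicle1. After scaling by DESeq2 size factors, which put libraries of different depth on a common scale and give the normalized counts used below, the histone sum was 9358 in IC1, 12710.1 in IC2 and 10727 in IC3. It was 14110.5 in Vehicle1, 10739 in Vehicle2 and 9327 in Vehicle3. The highest and the lowest library were thus both vehicle libraries, and the groups overlapped, with a log2 ratio of the group means, IC over vehicle, of −0.06. The SD of the log2 sums within groups was 0.27.

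The sums by type overlapped between the groups as well. H1 summed to 2893, 3583 and 2738 normalized counts in IC1, IC2 and IC3 and to 4451, 3399.6 and 3160.1 in Vehicle1, Vehicle2 and Vehicle3, a log2 ratio of −0.26. H3 summed to 831, 1817 and 1558 in the IC libraries and to 2065, 1231 and 726 in the vehicle libraries, a log2 ratio of 0.06. Within each treatment, H3 thus changed more from library to library than between the group means. The log2 ratios of the other types were 0.13 for H2a, −0.10 for H2b and 0.02 for H4. The highest library held 2.85 times the lowest for H3, 2.00 times for H2b, 1.63 times for H1, 1.51 times for H2a and 1.19 times for H4. On a scale per transcript length (RPKM, counts scaled by annotated exon length and by the library total), H4 had the highest summed level in each library, 69.7 to 101, and the median library had 78.6 for H4 against 30.7 for H2b, the lowest type. This ranking rests on the annotated lengths, which reach 7425 bases for the H1 gene Hist1h1d and 4446 for the H2b gene Hist1h2be. The H4 level came from 13 genes whose coding sequences all translate to the same protein, whereas the 6 H1 genes encode 6 different proteins.

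**Figure D1:**
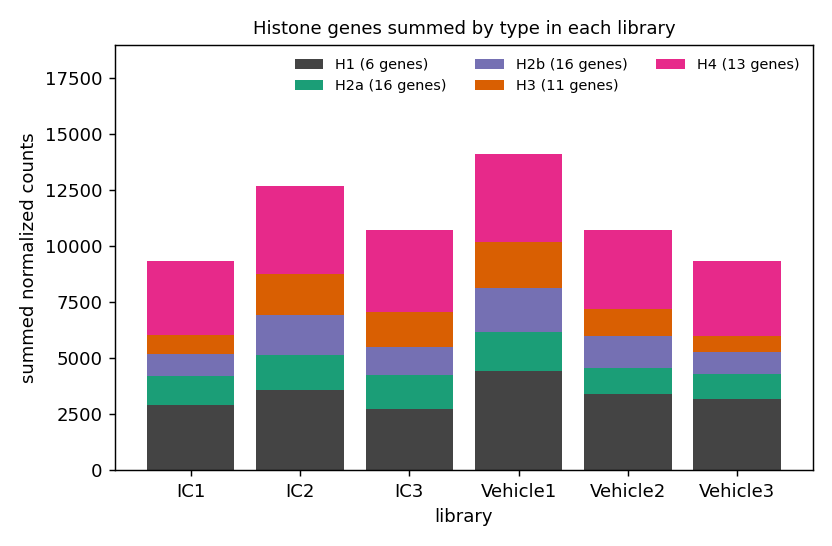
Stacked bars give the summed normalized counts of the histone genes of each type in each of the 6 libraries. Vehicle1 (14110.5) and IC2 (12710.1) stand highest, and IC1 (9358) and Vehicle3 (9327) lowest, so each treatment has a library at both ends.

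Of the 62 genes, 57 had at least 10 counts in at least 3 libraries and were tested with the 19925 genes of the whole table that passed this filter. The 5 that did not pass were Hist1h1t, a testis-specific H1, and Hist1h2al, Hist1h2ao, Hist1h4j and Hist3h2ba. None of the 57 passed an adjusted p of 0.05 in the DESeq2 Wald test with Benjamini-Hochberg adjustment, where 2.1% of all tested genes did (1.07% lower after IC). DESeq2 gave no adjusted p to 14 of the 57, whose counts were low. At an unadjusted p under 0.05 DESeq2 counted 3 of the 57 (9.8% of all genes). edgeR's quasi-likelihood test called 0 (0.186% of all genes), with 2 at an unadjusted p under 0.05 (9.64%), and limma-voom called 0 (0.311%), with 3 at an unadjusted p under 0.05 (10.3%). The lowest adjusted p over the 57 was 0.216 in DESeq2 and 0.316 in edgeR, both for Hist1h4d. Leaving out 1 library, the lowest in DESeq2 was 0.0906, for the H4 gene Hist1h4h without IC2, and 0.141, for Hist1h1e, without Vehicle1.

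With all 6 libraries, the median log2 fold change over the 57 genes was −0.02, against −0.00187 over all tested genes, and 27 of the 57 were above 0. The histone median depended on single libraries: it was 0.45 without Vehicle1, 0.19 without IC1, −0.35 without IC2 and −0.29 without Vehicle3, while the median over all tested genes stayed between −0.00581 and 0.00602. The range ran from −1.09 for Hist1h4k to 0.66 for Hist2h2be. The 3 IC values lay wholly above the 3 vehicle values for Hist2h4 and Hist2h2ac, 2 of 57 where 8.09% of all tested genes did so. They lay wholly below for Hist1h1e and Hist1h4d, 2 of 57 against 7.67% of all genes. In all, 4 of 57 did not overlap, against 15.8% of all genes. The median standard error of a log2 fold change was 0.70 over the 57 genes and 0.22 over all tested genes, so a change of a given size was less detectable for a typical histone gene than for a typical gene of the table.

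**Figure D2:**
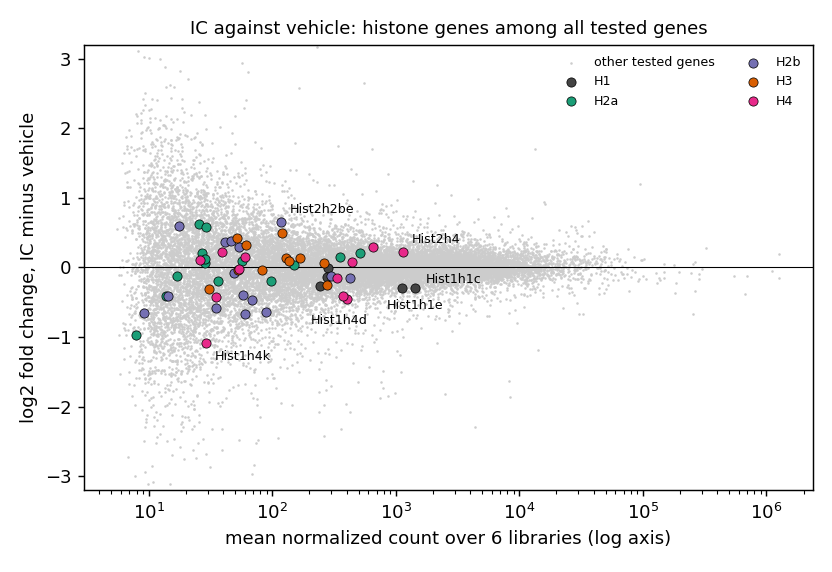
Each point is a tested gene, with its mean normalized count over the 6 libraries on a log axis and its log2 fold change, IC minus vehicle; histone genes are coloured by type and other genes are grey (27 other genes lie outside the axis limit of 3.2). Histone genes lie on both sides of 0, within the grey cloud at their level.

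Among the H1 genes, Hist1h1c and Hist1h1e had the highest counts, and with Hist2h4 they were the 3 most counted histone genes. Hist1h1e read 1088, 955 and 967 normalized counts in IC1, IC2 and IC3 and 1151, 1298 and 1233 in Vehicle1, Vehicle2 and Vehicle3. Every IC value was below every vehicle value, and the log2 fold change was −0.29 ± 0.13 (SE; DESeq2 adjusted p = 0.282). Hist1h1e shares annotated exon with Hist1h2be and Gm11398, and counts in the shared stretch cannot be assigned to either with certainty. Hist1h1c read 1527, 1353 and 997 after IC and 1456, 1669 and 1648 in vehicle libraries. The groups overlapped through IC1, and the log2 fold change was −0.30 ± 0.15 with an adjusted p of 0.430 (DESeq2). Without IC3 it was −0.14.

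The other tested H1 genes, Hist1h1a, Hist1h1b and Hist1h1d, differed most between libraries of the same treatment. Hist1h1b, the linker histone that is also called H1.5, had 13.2 normalized counts in IC1, 522 in IC2 and 254 in IC3. It had 731 in Vehicle1, 124 in Vehicle2 and 14.6 in Vehicle3. The highest library thus exceeded the lowest 55.3-fold, while the log2 fold change between treatments was −0.14 ± 1.62 (adjusted p = 0.995, DESeq2). Its sign was not stable, with 1.93 without Vehicle1, 0.42 without IC1 and −1.12 without IC2. Hist1h1b is named here after its values were seen, for this spread, as are Hist1h3b and Hist1h3c below. Every 150-base window of its transcript, the length of 1 read, was unique among the annotated transcripts. Hist1h1a had the H1 fold change nearest to 0 (−0.01 ± 0.76), and read 141, 411 and 303 after IC and 562, 133 and 164 in vehicle libraries.

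Of the H2a genes, Hist2h2ac and Hist3h2a had the highest counts. Hist2h2ac read 515, 587 and 561 after IC and 448, 502 and 490.0 in Vehicle1, Vehicle2 and Vehicle3. Every IC value was above every vehicle value, but the difference was small, at 0.21 ± 0.16 on the log2 scale (DESeq2 adjusted p = 0.741). Per annotated exon length it was the most abundant histone transcript, at 20.7 RPKM over 520 bases. That rank rests on the annotated lengths, with 19.2 for Hist1h1c over 1560 bases and 14.6 for Hist2h4 over 1630. Hist3h2a read 418, 350.4 and 356 after IC and 432, 247 and 337 in vehicle libraries, and the groups overlapped (log2 fold change 0.14 ± 0.23). Its exons overlap those of Trim17, so part of its counts is uncertain. Hist2h2aa2 had a mean of 149.7 normalized counts and no unique 150-base window, and the 11 remaining tested H2a genes had means under 100. Those at the ends of the H2a fold changes were Hist1h2ab, at 0.62 ± 1.12, and Hist1h2ah, at −0.97 ± 1.61. Hist1h2ab had 2.20, 27.9 and 63.6 normalized counts after IC and 35.3, 25.5 and 0 in vehicle libraries, and Hist1h2ah stayed under 19 in all 6, with 0 in IC1 and Vehicle3. Neither received an adjusted p from DESeq2, and edgeR gave 0.935 and 0.906.

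Of the H2b genes, Hist1h2bc and Hist1h2be had the highest counts and were among the steadier members. Hist1h2bc read 423, 419 and 376 after IC and 428, 520.5 and 404 in vehicle libraries (log2 fold change −0.15 ± 0.19). Hist1h2be read 252, 359 and 248 after IC and 335, 300.4 and 299 in vehicle libraries (log2 fold change −0.12 ± 0.23). In neither gene were the groups apart. Hist2h2be had the highest fold change of all 57 genes and read 162, 168 and 102 after IC and 97.6, 66.1 and 111 in vehicle libraries. IC3 fell below Vehicle3, so the groups overlapped, and the log2 fold change of 0.66 ± 0.36 had an adjusted p of 0.505 (DESeq2). Its 95% interval ran from −0.05 to 1.36. Hist2h2bb had the lowest H2b fold change, −0.66 ± 0.61, but its vehicle values alone ran from 17.0 to 129, and no 150-base window of its transcript was unique.

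Of the H3 genes, Hist1h3f and Hist1h3e had the highest counts. Hist1h3f read 195, 297 and 274 after IC and 366, 334 and 207 in vehicle libraries (log2 fold change −0.25 ± 0.27). Hist1h3e read 153, 351 and 295 after IC and 368, 251 and 143 in vehicle libraries (log2 fold change 0.06 ± 0.35). Both were lowest in IC1 and Vehicle3. Hist1h3c went from 19.8 in IC1 to 234 in IC2 and 172 in IC3, and from 304 in Vehicle1 to 79.3 in Vehicle2 and 17.0 in Vehicle3. Hist1h3b had 7.71, 129 and 69.0 normalized counts after IC and 152, 13.2 and 0 in vehicle libraries. Thus the same library order returned in both, within either treatment. The ends of the H3 fold changes were Hist2h3c2 at 0.49 ± 0.37, with 155, 109 and 157 after IC and 61.5, 111 and 128 in vehicle libraries, and Hist1h3d at −0.31 ± 0.91. The 11 H3 genes encode 2 distinct proteins, and in 150-base windows Hist1h3b was unique over 50.5% of its transcript, so counts of single H3 genes are less certain than their sum.

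Of the H4 genes, Hist2h4 and Hist4h4 had the highest counts. Hist2h4 read 1119.6, 1183 and 1402 after IC and 1101, 1033 and 1043 in vehicle libraries. Every IC value was above every vehicle value, if narrowly for IC1, and the log2 fold change of 0.22 ± 0.13 had an adjusted p of 0.568 (DESeq2). Without IC3 it was 0.12. Hist4h4, the only member on chromosome 6 and the highest H4 fold change, read 648, 820 and 712 after IC and 576, 543 and 663 in vehicle libraries. Its groups overlapped through IC1 and Vehicle3 (log2 fold change 0.29 ± 0.16, adjusted p = 0.517, DESeq2). Hist1h4d went the other way, with 356, 350.4 and 318 after IC and 440.3, 508 and 454 in vehicle libraries. Its log2 fold change was −0.45 ± 0.18, with a 95% interval from −0.81 to −0.10, an unadjusted p of 0.0127 and an adjusted p of 0.216 (DESeq2). All of its 150-base windows were unique. Hist1h4k had the lowest fold change, −1.09 ± 0.75, from 9.92, 36.2 and 9.86 normalized counts after IC and 45.9, 52.0 and 20.7 in vehicle libraries. It was −2.00 without IC2 and −0.78 without IC3, and DESeq2 gave it no adjusted p.

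By cluster, the 50 Hist1 genes on chromosome 13 summed to 5988, 8992 and 6995 normalized counts in IC1, IC2 and IC3 and to 10948, 7749 and 6207 in Vehicle1, Vehicle2 and Vehicle3. These sums overlapped, and the highest was 1.83 times the lowest. The 8 Hist2 genes on chromosome 3 summed to 2289.8, 2484 and 2653 after IC and to 2121, 2189 and 2107 in vehicle libraries, so that each IC sum lay above each vehicle sum, by a log2 ratio of 0.21. Hist2h4 was the largest part of that sum in each library. These sums are given without a test.

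The members did not share a common spread. The biological coefficient of variation, the part of the spread within groups that counting does not account for as a share of the mean, was compared with that of other genes of the same range of mean counts. Of the 23 members with a mean of at least 100 normalized counts, 6 exceeded the 90th percentile of 7295 other genes (0.282), and 7 fell below their median (0.133). The 6 were Hist1h1a, Hist1h1b, Hist1h1d, Hist1h3a, Hist1h3c and Hist1h3e, all in the Hist1 cluster, with 1.38 for Hist1h1b and 1.09 for Hist1h3c. The 7 were Hist1h1e, Hist1h2bc, Hist1h4d, Hist2h2aa2, Hist2h2ac, Hist2h4 and Hist4h4, with 0.046 for Hist2h2ac and 0.052 for Hist1h4d. Of the 34 members with a mean under 100, 10 exceeded the 90th percentile of 6255 other genes (1.15) and 2 fell below their median (0.447).

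**Figure D3:**
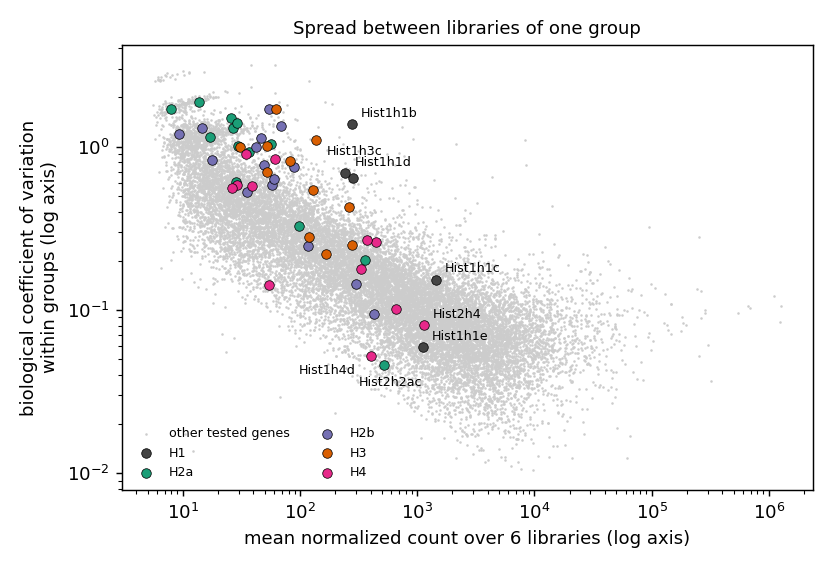
Points are tested genes, with the mean normalized count on the horizontal log axis and the biological coefficient of variation within groups on the vertical log axis; genes under 0.01 (869 other genes and 1 histone gene) are not drawn. Hist1h1b and Hist1h3c lie at the upper edge of the cloud at their level, and Hist1h4d and Hist2h2ac below its middle.

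The annotated 3′ ends were set beside this spread. In 18 tested members with a stem-loop, the annotation runs on for at least 100 bases past it, and their median coefficient of variation was 0.266. In 19 it stops sooner, and the median was 0.836. The former include Hist1h1c, Hist1h1e, Hist1h4d, Hist2h4 and Hist4h4, but also Hist1h1d (0.69), Hist1h3e (0.43) and Hist1h2ae (1.30), and 10 of the 18 lay under 0.3. The latter include Hist1h2bm, Hist1h3b and Hist1h3c, but also Hist2h2ac, and 4 of the 19 lay under 0.3. The 18 genes also had the higher counts (median mean 269.6 against 49.5), and low counts by themselves go with a larger spread. Among members with a mean of at least 100 the medians were 0.166 over 12 genes and 0.267 over 5. Which 3′ end the counted reads came from cannot be read from gene counts.

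The variable members were high and low in the same libraries. Of the 57 genes, 28 were highest in Vehicle1 and 14 in IC2, whereas none was highest in IC1 or Vehicle3. The lowest value lay in IC1 for 18 genes and in Vehicle3 for 17. The 18 include Hist1h2ag and Hist1h2ah, which were at 0 in both of these libraries. How often each library was highest or lowest over all genes was not counted. Counts of 0 were found for 11 of the 62 genes in Vehicle3, 5 in IC1 and 4 in Vehicle2, but for none in the other libraries. Of all 24348 genes, 1779 were at 0 in Vehicle3, 1004 in IC1 and 2616 in Vehicle2. In IC2, IC3 and Vehicle1 they were 1172, 1982 and 1061, so IC1 had the fewest over the whole table. Vehicle3 and IC1 were also the libraries with the fewest total counts and Vehicle1 the one with the most.

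**Figure D4:**
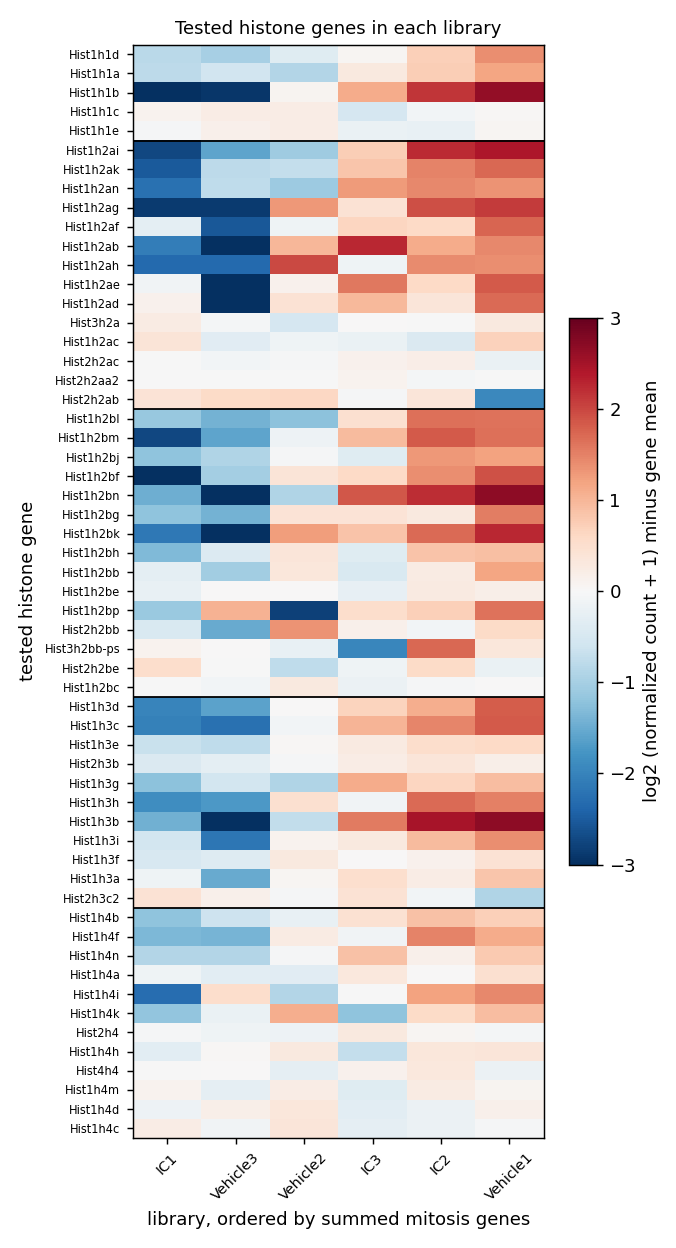
Rows are the 57 tested histone genes, grouped by type from H1 at the top to H4, and columns are the 6 libraries in the order of their summed mitosis genes; colour gives the log2 normalized count (plus 1) minus the gene's mean, cut at 3 in either direction. Most rows turn from blue in IC1 and Vehicle3 to red in IC2 and Vehicle1, while Hist1h1c, Hist1h1e, Hist2h2ac, Hist2h4, Hist4h4 and Hist1h4d stay pale.

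A list of 20 mitosis genes, such as Mki67, which encodes the Ki-67 antigen of cycling cells, Top2a, the topoisomerase of dividing cells, and Cdk1, the mitotic kinase, varied between the same libraries. Mki67 read 174, 878 and 1005 normalized counts after IC and 1628, 361 and 184 in vehicle libraries (log2 fold change −0.08 ± 1.08, adjusted p = 0.996, DESeq2). The list summed to 1629.8, 4088 and 3398 after IC and to 5112, 2067 and 1641 in vehicle libraries. Over the 6 libraries, the log2 histone sum and the mean log2 level of the mitosis list had a Pearson correlation of 0.94 and a Spearman correlation of 0.89, given as a description. Without Vehicle1 and IC1, the libraries farthest from the median of the mitosis list, the Pearson correlation was 0.89. Depth moved with both, at 0.67 for the histone sum and 0.65 for the mitosis list, and its part in the relation was not tested. In bulk RNA, more cells that make these transcripts and more transcript per cell cannot be told apart.

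By type the correlation with the mitosis list was 0.98 for H4, 0.96 for H3, 0.90 for H2b, 0.90 for H2a and 0.64 for H1, and the last fell to 0.09 without Vehicle1 and IC1. Among single members it was above 0.8 for 27 of 57, against 2.62% of 19848 other tested genes. Most of these had low counts. Of 34 members with a mean under 100 normalized counts, 20 were above 0.8 (median 0.85). Of 23 with a mean of at least 100, 7 were above 0.8 and 7 below 0 (median 0.32), with 2.31% of 13404 other genes of that level above 0.8. The correlation was as high as 0.99 for Hist1h2ai and 0.97 for Hist1h1d, and below 0 for 8, among them Hist1h1c (−0.48), Hist1h1e (−0.48), Hist1h4c (−0.54) and Hist1h4d (−0.22). The H1 sum thus joined genes of both kinds. Among H1 genes Hist1h1c and Hist1h1e, with the higher counts, lay below 0, and Hist1h1a, Hist1h1b and Hist1h1d lay at 0.96 to 0.97. The H4 sum joined both kinds as well, and its 0.98 does not describe its single genes. The 12 tested H4 genes had a median correlation of 0.42, with 4 above 0.8 and 2 below 0.

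**Figure D5:**
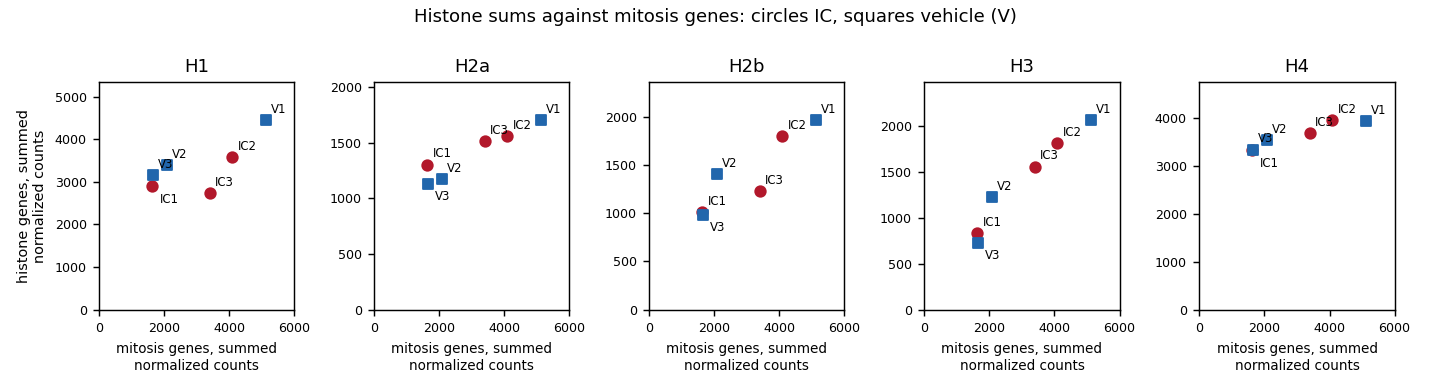
Each panel sets the summed normalized counts of 1 histone type against the sum over 20 mitosis genes, with 1 point per library (circles IC, squares vehicle). H3 rises from 726 in Vehicle3 to 2065 in Vehicle1 along the mitosis sum, whereas H4 stays between 3319 and 3946, and IC and vehicle points mix along the axis in all 5 panels.

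Outside the group, the genes with a mean of at least 100 normalized counts whose log2 levels were most like the summed histone level over the 6 libraries were Gm44695, Matr3, Igsf9, Gm48986 and Spag5, at Pearson correlations from 0.997 for Gm44695 to 0.982 for Spag5. Spag5 encodes a protein of the mitotic spindle. After Gm37023, Mrpl21 and Mutyh, Cenpa, the H3 variant of centromeres, stood ninth at 0.98. Cenpa read 116, 218 and 175 after IC and 377, 154 and 111 in vehicle libraries. With 13412 genes and 6 libraries, single correlations of this size are a description only. By list, the median correlation was 0.87 over 8 mitosis genes, 0.72 over 27 S-phase genes, 0.22 over 22 genes that make or handle histones and −0.03 over 11 replacement histones, against −0.07 over all genes of that level.

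The genes that make, process and carry histone mRNA and histones were read from the same fit. Of 24 tested, which include Slbp, Npat, the activator of histone gene transcription, Lsm10 and Lsm11 of the U7 particle that cuts histone mRNA, and the histone chaperones Nasp and Asf1a, 0 were called by DESeq2 (2.1% of all tested genes), edgeR or limma-voom, with 0 at an unadjusted p under 0.05 in DESeq2 (9.8% of all). With so few genes, a count of 0 is near that background. Their median log2 fold change was −0.05. Slbp read 6023, 6039 and 5518 normalized counts after IC and 6342, 5091 and 5964 in vehicle libraries, a log2 fold change of 0.01 ± 0.10 (DESeq2 adjusted p = 0.988). Slbp thus moved far less between libraries than the variable histone genes did. Of 30 tested S-phase genes and 20 tested mitosis genes, 0 were called by any of the 3 tests, with 0 and 1 at an unadjusted p under 0.05 in DESeq2, against the same background shares.

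Of 11 replacement histones, 1 was called, at a lower level after IC, where 1.07% of all tested genes were. This was H1f0, the linker histone H1.0 of cells that have stopped dividing, with 3330.0, 3301 and 3502 normalized counts after IC and 3903, 4343 and 4806 in vehicle libraries. Every IC value lay below every vehicle value, and H1f0 fell by 0.36 ± 0.10 on the log2 scale (adjusted p = 0.0133, DESeq2), though edgeR did not call it (adjusted p = 0.133) and neither did limma-voom. In DESeq2 the call was also lost when IC1, IC2, Vehicle2 or Vehicle3 was left out. H1fx, the linker histone H1.X, read 242, 255 and 136 after IC and 384, 352 and 381 in vehicle libraries, a log2 fold change of −0.82 ± 0.26 (DESeq2 adjusted p = 0.0556). H3f3b, which encodes the replacement histone H3.3, read 18551, 17610.4 and 18253 after IC and 19838, 19138 and 18615 in vehicle libraries, a log2 fold change of −0.08 ± 0.07 (adjusted p = 0.776, DESeq2), and H2afz, the variant H2A.Z, had 0.09 ± 0.10. Cenpa had −0.34 ± 0.40 (adjusted p = 0.879, DESeq2).

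Markers of other cells moved with treatment in these libraries, and their part in the histone values was not tested. All 10 fibroblast markers were present, Col1a1 at 13057 to 16313 and Pdgfra at 910.2 to 1101 CPM (counts scaled to a common library total), with Prg4, the lubricin of lining fibroblasts, called higher after IC and Col3a1, Lum and Clic5 called lower. The 10 satellite cell markers summed to 267 to 339.7 CPM after IC and 413 to 496 in vehicle libraries, and Megf10, Myf5 and Chodl were called lower. Notch3 was the largest part of this sum, with 198 to 228 CPM after IC and 236 to 272 in vehicle libraries. Notch3 and Des are also among the mural markers below, where Notch3 was again the largest. The 12 skeletal muscle markers summed to 14.8 to 29.7 and 25.5 to 63.3 (Actn3 and Myh1 lower), the 10 endothelial markers to 209 to 281 and 279 to 333 (Kdr, Cdh5 and Cldn5 lower), and 9 mural markers to 501 to 617 and 619.8 to 668 (Myh11 lower). Of the blood cell lists, 6 macrophage markers summed to 31.7 to 48.9 CPM after IC and 38.9 to 50.5 in vehicle libraries. Of these, 4 were tested, with none called (0 at an unadjusted p under 0.05 in DESeq2, edgeR or limma-voom). The 4 lymphocyte markers summed to 2.68 to 4.04 and 6.77 to 9.89, with 3 tested (Ighm lower). The 8 marrow markers summed to 2.62 to 3.59 and 1.52 to 3.10. Only 2 of the 8 were tested, and DESeq2 gave no adjusted p to 1 of them. Neither was called (0 at an unadjusted p under 0.05 in each test). The lists named 10 macrophage, 10 lymphocyte and 13 marrow markers, and those without a row in the table were not read. Every row had counts in at least 3 libraries, so no marker in the table could be at 0 in all 6. edgeR called only Megf10 of the listed markers.

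The promoters of the H4 genes seldom held a CCAAT box, unlike those of the other types. RefSeq promoters of GRCm38.p6, from 250 bases before to 50 after the start, were matched for 55 of the 62 genes, and 3 short motifs were searched on both strands. These were the CCAAT box, the TATAAA form of the TATA box and the octamer ATTTGCAT. CCAAT was present in all 43 matched H1, H2a, H2b and H3 promoters but in 3 of 12 H4 promoters, against 37.9% of 27025 promoters of the same length. ATTTGCAT was found in 6 of 15 H2a and 5 of 13 H2b promoters and in no H1, H3 or H4 promoter, against 1.75% of all. Some H2a and H2b genes are neighbours on opposite strands with overlapping promoter windows, such as Hist1h2ah with Hist1h2bk and Hist1h2ae with Hist1h2bg. The same site can then be counted for both types, so the CCAAT and ATTTGCAT counts are not all of separate stretches. TATAAA was found in 32 of 55, against 14.2% of all. Shown 5′ to 3′ on the gene's strand are the promoter of a variable gene, Hist1h1b, and of 2 genes of low spread whose groups did not overlap, Hist2h2ac and Hist1h4d, with matches to any of the 3 motifs in capitals.
Hist1h1b: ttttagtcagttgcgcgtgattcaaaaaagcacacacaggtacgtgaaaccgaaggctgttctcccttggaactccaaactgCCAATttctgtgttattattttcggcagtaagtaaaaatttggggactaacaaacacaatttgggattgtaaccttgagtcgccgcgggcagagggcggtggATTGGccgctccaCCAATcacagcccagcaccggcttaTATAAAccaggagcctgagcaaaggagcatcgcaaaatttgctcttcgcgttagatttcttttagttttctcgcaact
Hist2h2ac: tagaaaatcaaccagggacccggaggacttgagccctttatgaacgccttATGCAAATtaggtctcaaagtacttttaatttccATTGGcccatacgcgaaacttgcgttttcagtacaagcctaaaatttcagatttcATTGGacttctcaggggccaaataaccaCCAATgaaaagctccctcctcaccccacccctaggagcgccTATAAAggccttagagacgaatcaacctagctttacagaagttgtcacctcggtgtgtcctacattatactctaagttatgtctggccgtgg
Hist1h4d: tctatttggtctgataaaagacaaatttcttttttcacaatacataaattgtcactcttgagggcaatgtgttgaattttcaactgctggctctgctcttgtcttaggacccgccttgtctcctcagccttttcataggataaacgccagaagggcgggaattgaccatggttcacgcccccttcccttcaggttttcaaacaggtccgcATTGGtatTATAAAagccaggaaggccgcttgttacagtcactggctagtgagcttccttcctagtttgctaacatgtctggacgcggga
They lie at chr13:21780576-21780875 (minus strand), chr3:96220831-96221130 (minus strand) and chr13:23581318-23581617 (plus strand). Hist1h1b holds 3 CCAAT matches and 1 TATAAA, Hist2h2ac holds 3 CCAAT matches, 1 octamer and 1 TATAAA, and Hist1h4d holds 1 CCAAT match, on the opposite strand, and 1 TATAAA. A match is only a run of letters, and no binding was measured here.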

How the data were processed

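Counts per gene were deposited by the authors for bulk total RNA-seq of 6 libraries, 3 IC and 3 vehicle, as raw counts that were not normalized. Per the submitters' processing notes, reads were handled with Trim Galore, FastQC, HISAT2 and featureCounts on mm10; their versions, the annotation, and the settings for strand and for reads with several matches are not given in the sources used here. The labels name a stranded Illumina kit for total RNA with Ribo-Zero Plus depletion, while the study's methods name another total RNA kit. The 6 per-sample files held the same values as the columns of the combined table, which was used.

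The 62 histone genes, the other gene lists and the tests were chosen with earlier results of these data known. A gene was tested if 3 or more libraries held 10 or more counts of it (19925 of 24348 genes), in R 4.3.3 with DESeq2 1.42.0 (Wald test, treatment as the only term, Benjamini-Hochberg adjusted p under 0.05), the tool the study names without giving its model terms for these libraries, with edgeR 4.0.16 and limma 3.58.1 beside it; sva 3.50.0, which the study names for batch effects, gave a surrogate variable as an alternative. Adjustment ran over the whole table, and the test scripts were run on simulated counts first. Coefficients of variation are square roots of DESeq2's gene-wise dispersions. Correlations used log2 of the normalized count plus 1. Named were histone genes called by DESeq2 or edgeR, the 2 with the highest mean and those with the highest and lowest log2 fold change of each type, those whose groups did not overlap, up to 6 called genes of each other list, Slbp and Mki67. Near-identical genes can share reads: over 150-base windows, 19 of the 62 genes were unique for under 50% of their annotated sequence, and 21 overlap exons of another gene. Alternatives were another scaling, no count filter, a replicate block, a surrogate variable and leaving out each library.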

Additional observations from a re-analysis of the deposited data

How the results depend on the processing

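No histone gene was called under any alternative, all run with DESeq2 unless named: edgeR, limma-voom, scaling by TMM or by the library total, the table without the count filter, independent filtering off, the replicate block, 1 surrogate variable, leaving out each library in turn, and, added after the data were seen, the mean level of the mitosis list as a term. The count of histone genes at an unadjusted p under 0.05 ran from 1 to 6 over these. The 6, of 54 tested in DESeq2, came without Vehicle1, where 2528 of all 19257 tested genes did so. A count of 1, of 57 tested in DESeq2, came with the replicate block among others, where 1646 of all 19925 did so. Over all genes, 419 were called by DESeq2 against 37 by edgeR and 62 by limma-voom; leaving out a library gave 281 to 677, the highest without Vehicle1. Of the other lists together, 15 genes were called by DESeq2, 1 by edgeR and 4 by limma-voom, and 7 to 19 when a library was left out, the lowest without Vehicle2; the cause was not tested. Same-numbered libraries did not deviate together (correlations −0.09, −0.16 and 0.02 over 13435 genes). With 3 libraries a group, these values cannot settle whether the numbers pair them. With the replicate block, 0 histone genes and 320 genes in all were called. The median log2 fold change of the histone genes was then 0.17, and that of Hist1h1b turned to 1.35. The lowest adjusted p over the histone genes was 0.564 with the block (DESeq2), and 0.0906 to 0.489 when a library was left out. The log2 ratio of the summed histone level moved by less than the SD within groups under each alternative, but leaving out a library took it from −0.18 to 0.12 over all types and from −0.23 to 0.52 for H3, so its sign is not fixed at 3 libraries a group; the ranges were −0.38 to −0.09 for H1, 0.02 to 0.34 for H2a, −0.37 to 0.18 for H2b and −0.04 to 0.09 for H4. The log2 fold changes of Hist1h1c, Hist1h1e, Hist1h4d, Hist2h4 and Hist2h2ac kept their sign throughout.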

Other observations

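With the mean level of the mitosis list as a term beside treatment, an alternative added after the data were seen, the median coefficient of variation of the 57 tested histone genes was 0.312, against 0.645 without it, and was lower for 45 of them; over all tested genes the medians were 0.131 and 0.141. The median standard error of the treatment effect on the histone genes was 0.56 with the term and 0.70 without it. The mitosis level varied with the histone sum in these same libraries, so the lower spread restates that correlation and is no separate result. The lowest adjusted p for treatment was 0.282, again for Hist1h4d. The mitosis level ran from 5.38 to 7.10 in IC and from 5.59 to 7.34 in vehicle libraries, as a mean of log2 values.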
